A study of Mus musculus with 90 samples.

Results

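The heart of female mice was compared between estrus and diestrus. The comparison used 6 of the 90 libraries of the series, all those whose label gave heart as the tissue, 3 of them taken in estrus and 3 in diestrus. RNA had been sequenced from 15 tissues in both phases. Both groups were normal C57BL/6 females, for which no treatment is stated. They were 10 weeks old by the sample labels, while the study's methods give a younger age. The phase was read from methylene blue stained vaginal smears, followed daily, and the study also measured serum estrogen and progesterone as an aid. The heart was taken as a tissue without a stated chamber or time of day. Expression is given as FPKM, the fragments assigned to a gene scaled to the length of its transcript and the depth of the library. Of the 20414 genes in the table, 11592 reached an average of 1 FPKM in these hearts and were tested on log2(FPKM + 1), a scale that understates the change of low genes.

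The estrous cycle exposes the heart to changing estrogen and progesterone. Working heart muscle draws most of its ATP from fatty acids and less from glucose, and pyruvate dehydrogenase, held in check by pyruvate dehydrogenase kinases such as Pdk4, sets how much glucose carbon enters the mitochondria. Heart muscle also follows a circadian clock, in which BMAL1 and CLOCK bind E-boxes and switch on the Per and Cry repressors and output factors such as DBP. Stretch and load are known to switch on immediate early genes and then the natriuretic peptides. Whole tissue was sequenced, so that fewer cells of a type and less RNA per cell cannot be told apart.

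The defining genes of heart muscle were checked first. Actc1, the cardiac actin, had 10483 to 11707 FPKM in the heart libraries and at most 1515 FPKM in any other library. Myh6, the fast cardiac myosin, had 4049 to 5652 FPKM against at most 717 FPKM elsewhere. The libraries listed 15990 to 16320 genes above 0 and correlated with each other at Pearson's r of 0.980 to 0.992 across the tested genes, which are not independent replicates. The table holds no read totals. The smallest steps between the values of 1371 short genes fitted 11.0 to 11.9 M reads per library, but in 3 libraries a search up to 30 M fitted better at 23.6 to 23.9 M. The depth behind the values, and how it differs between the libraries, is therefore uncertain by that factor. The study's methods state an approximate number of reads generated for each sample, which lies nearer the higher fits. They do not give the reads assigned to genes in each library.

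Estrus replicate 3 stood apart in chamber genes. It had the lowest correlations with the other libraries, at 0.980 to 0.984. Myl7, the atrial regulatory light chain, had 0.16, 1.53 and 974 FPKM in estrus replicates 1, 2 and 3 and 3.83, 3.32 and 1.79 FPKM in diestrus. Myl4, the atrial essential light chain, had 1.33, 6.95 and 812 FPKM in estrus and 3.77, 4.46 and 3.37 FPKM in diestrus. Sln, sarcolipin, which restrains the calcium pump of atrial muscle, had 0.35, 0.52 and 334 FPKM in estrus and 0.86, 2.72 and 0.55 FPKM in diestrus. A single library thus carried nearly all of the signal of the light chains and of sarcolipin. Summed over the 18 listed atrial genes, the level was 6146 FPKM in estrus replicate 3 and 388 to 623 FPKM in the other 5, and the ratio to their median was 13.1. Of the 18 genes, 17 were highest in that library, all but the potassium channel gene Kcna5. Among them, the atrial gene Bmp10 was at only 0.07 FPKM there and at 0 elsewhere.

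**Figure D1:**
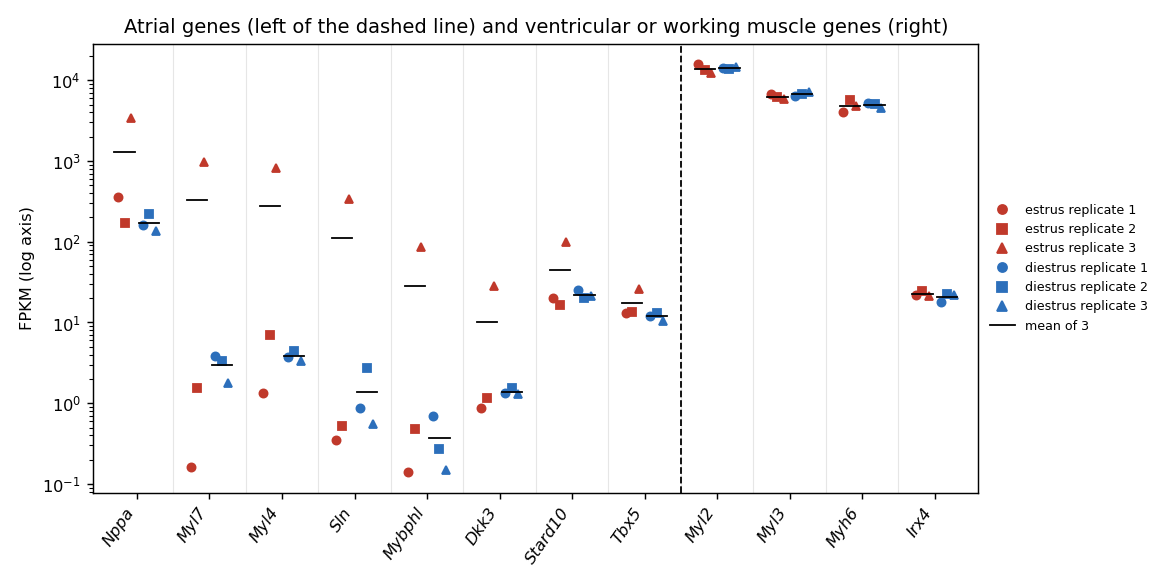
Level of 8 atrial genes (left) and 4 genes of ventricular or working muscle (right) in each heart library, in FPKM on a log axis; colours mark the phase, symbols the replicate and bars the mean of 3. Estrus replicate 3 lies far above the other libraries for Nppa, Myl7, Myl4, Sln, Mybphl and Dkk3, and beside them for Myl2, Myl3, Myh6 and Irx4.

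The summed level of the ventricular genes was similar in all 6 libraries. Over 12 genes it was 28118, 24562 and 23262 FPKM in estrus and 25406, 25197 and 27066 FPKM in diestrus. Myl2 made up most of this sum, which does not show that each gene was alike. Of the 12, 2 were higher in estrus and 1 lower at an unadjusted p under 0.05 in limma, against 4.01% and 2.09% of all tested genes. Without overlap, 1 was higher and 2 were lower, against 7.91% and 3.84%. Myl2, the ventricular light chain, had 15736, 13219 and 12166 FPKM in estrus and 13999, 13626 and 14613 FPKM in diestrus, with overlapping groups. Genes of the epicardium and mesothelium, the outer lining, were also highest in estrus replicate 3, for 9 of 12 genes, with a sum of 56.5 FPKM against 13.5 to 18.4 FPKM in the others. For part of the results below, values are also given without this library. Where none is given, its influence on the result is not shown.

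The limits of the study were a doubling or more, a log2 fold change of 1 in size, and an adjusted p no higher than 0.05. Under them limma called 0 of 11592 genes, and the lowest adjusted p was 0.667. At an unadjusted p under 0.05, 707 genes or 6.10% were counted, 465 of them higher in estrus (4.01%) and 242 lower (2.09%). This split depended on the scale. When the libraries were shifted to equal medians, a change of -0.03 to 0.05 in log2, it became 262 higher and 510 lower. The phases did not overlap for 1362 genes or 11.7% of those tested, 917 higher in estrus and 445 lower. Without estrus replicate 3, 960 genes (8.28%) had an unadjusted p under 0.05, 488 higher (4.21%) and 472 lower (4.07%), and still none was called. The share at that limit was 5.42% without estrus replicate 1 (2.93% higher and 2.48% lower) and 5.99% without estrus replicate 2 (4.43% and 1.55%). Leaving out the diestrus libraries 1, 2 and 3 in turn, it was 5.11%, 6.47% and 4.02%, made up of 3.01%, 3.94% and 2.92% higher and 2.10%, 2.53% and 1.10% lower. With equal medians it was 6.66% (2.26% and 4.40%). These shares are the background for the counts of list members below. With 3 mice against 3, the smallest p that an exact permutation test of a single gene can give is 0.1. What follows describes genes by their values, and none of them passed the adjusted limit.

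Among genes higher in estrus without overlap, Pdk4 had the largest difference. This kinase switches off pyruvate dehydrogenase and is known to be induced by fasting and fatty acids. Pdk4 had 317, 101 and 104 FPKM in estrus and 49.1, 49.1 and 29.8 FPKM in diestrus. Every estrus library was above every diestrus library, and estrus replicate 1 was far above the other estrus libraries. The log2 fold change was 1.82 ± 0.42 (SE), with an adjusted p of 0.789 in limma. It was 2.08 without estrus replicate 3 and 1.29 without estrus replicate 1. Ucp3, a mitochondrial carrier that accompanies fatty acid use in muscle, had 53.6, 21.3 and 30.6 FPKM in estrus and 20.8, 9.23 and 13.2 FPKM in diestrus. Its highest value was again in estrus replicate 1, and the lowest estrus value was barely above the highest diestrus value. The log2 fold change of Ucp3 was 1.20 ± 0.35 (SE), with an adjusted p of 0.792 in limma, and 1.25 without estrus replicate 3. Angptl4, an inhibitor of lipoprotein lipase, did not overlap either, but stood out in a single library, with 10.3, 1.83 and 1.80 FPKM in estrus and 1.33, 1.27 and 1.46 FPKM in diestrus. Its log2 fold change was 0.93 ± 0.49 (SE) and fell to 0.26 without estrus replicate 1.

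Around these genes, the list of fatty acid oxidation had 38 tested members, 25 of them higher in estrus, with a median log2 fold change of 0.07, against 56.8% of all tested genes higher and a median of 0.02. At an unadjusted p under 0.05, 5 were higher and 0 lower, against 4.01% and 2.09% of all tested genes. Pdk4 and Ucp3, already chosen above from the same values, were among these, as were Mlycd and Cpt1a. With equal medians the median of the list was 0.03, with 24 members higher and 14 lower. At the unadjusted limit 4 were then higher and 1 lower. Mlycd, which degrades malonyl-CoA and so frees the entry of fatty acids into mitochondria, had 65.8, 54.9 and 56.5 FPKM in estrus and 48.0, 48.0 and 43.1 FPKM in diestrus. The groups did not overlap, and the log2 fold change of Mlycd was 0.34 ± 0.09 (SE). Cpt1a, the carnitine palmitoyltransferase of liver type, had 17.1, 15.6 and 15.7 FPKM in estrus and 15.6, 12.4 and 12.2 FPKM in diestrus, so that the groups touched. Of the list, 18 of 38 members were highest in estrus replicate 1. The abundant members showed small differences. Fabp3, the fatty acid binding protein of muscle, had 4253 to 5096 FPKM in estrus and 4353 to 4559 FPKM in diestrus, and the log2 fold changes of Lpl, lipoprotein lipase, and Ech1, an enoyl-CoA isomerase, were -0.07 and 0.05.

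The list of glucose use leaned the other way. Of 30 tested members, 23 were lower in estrus, against 43.2% of all tested genes, and the median log2 fold change was -0.08. At an unadjusted p under 0.05, 0 were higher and 3 lower, namely Slc2a4, Pdhb and Eno3. That number was 5 with equal medians, 4 without estrus replicate 1 and 2 in each of the other 5 fits without 1 library. Slc2a4, the insulin-responsive glucose transporter GLUT4, had 213, 225 and 218 FPKM in estrus and 254, 256 and 248 FPKM in diestrus. The groups were tight and apart, and the log2 fold change was -0.21 ± 0.05 (SE), with an adjusted p of 0.792 in limma. Pdhb, a subunit of the pyruvate dehydrogenase that Pdk4 acts on, had 539.6, 523 and 491 FPKM in estrus and 569, 585 and 589.7 FPKM in diestrus. Eno3, the muscle enolase of glycolysis, had 784, 772 and 727 FPKM in estrus and 915, 832 and 810.3 FPKM in diestrus. The most abundant member, Gapdh, also did not overlap, with 4823 to 5086 FPKM in estrus and 5211 to 5717 FPKM in diestrus. Aldoa, the muscle aldolase, and Ldhb, the lactate dehydrogenase of heart type, had log2 fold changes of -0.09 each. The other kinases of pyruvate dehydrogenase did not share the difference of Pdk4, since Pdk1, Pdk2 and Pdk3 had log2 fold changes of 0.06, -0.08 and 0.08. That difference between the kinases was not tested.

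The nuclear genes of oxidative phosphorylation, the subunits of the respiratory chain and of ATP synthase, had small differences that mostly pointed down. Of 94 tested members, 81 were lower in estrus, with a median log2 fold change of -0.08, and 9 did not overlap, all lower, against 3.84% of all tested genes. At an unadjusted p under 0.05, 7 were lower and 0 higher: Ndufs5, Ndufs7 and Ndufs8 of complex I, Uqcr10 of complex III, Cox6c and Cox8a of complex IV and Atp5o of ATP synthase. Ndufs5 had 352, 323 and 321 FPKM in estrus and 433, 372 and 395 FPKM in diestrus. Ndufs8 had 256, 236 and 256 FPKM in estrus and 288, 297 and 294 FPKM in diestrus. Both differed without overlap, by -0.27 ± 0.08 (SE) and -0.23 ± 0.06 (SE) in log2. The summed level of the list was 69169, 61360.5 and 62036 FPKM in estrus and 67367, 66791 and 71126 FPKM in diestrus, and these sums overlapped, with estrus replicate 1 within the diestrus range. The median of the list was -0.13 without estrus replicate 1, -0.07 without estrus replicate 3 and -0.12 with equal medians. The number of its members that were lower at an unadjusted p under 0.05 rested on single libraries, since it was 26 when estrus replicate 1 was left out, 3 when estrus replicate 2 was left out and 2 when either estrus replicate 3 or diestrus replicate 3 was left out. Outside this list, Bckdhb, a subunit of the enzyme that breaks down branched-chain amino acids, had 43.7 ± 0.230 FPKM in estrus and 50.4 ± 0.529 FPKM in diestrus (mean ± SD), with a log2 fold change of -0.20 ± 0.05 (SE). Of 12 tested genes of ketone and branched-chain amino acid use, 8 were lower, against 43.2% of all tested genes, with a median log2 fold change of -0.03. At an unadjusted p under 0.05 in limma, 1 was lower and 0 higher.

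**Figure D2:**
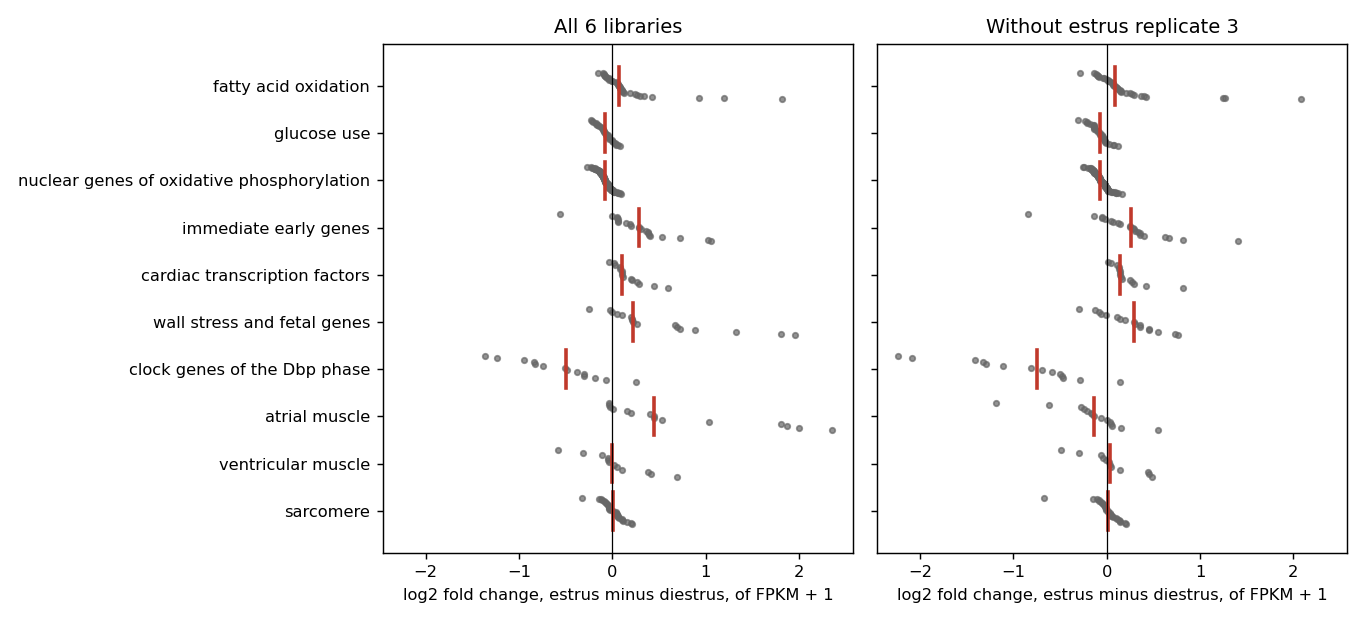
Log2 fold change of FPKM + 1, estrus minus diestrus, of each tested member of 10 gene lists (grey points, sorted within a list) with the median of the list (red bar), from all 6 libraries (left) and without estrus replicate 3 (right). The median of the atrial list moves from 0.45 to -0.14 and that of the Dbp-phase clock genes from -0.50 to -0.75, while the metabolic lists stay near 0.

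Immediate early genes, which are transcribed within minutes of a stimulus, had mostly higher values in estrus. Of 22 tested members, 20 were higher, with a median log2 fold change of 0.29, and 6 did not overlap, all higher, against 7.91% of all tested genes. At an unadjusted p under 0.05, 8 were higher and 1 lower, also with equal medians. Without estrus replicate 3, 17 members were higher and 5 lower, with 7 and 1 at that limit. The number higher at that limit was 6 without diestrus replicate 1 and 11 without diestrus replicate 2. Fos, a subunit of AP-1, had 3.99, 2.57 and 5.52 FPKM in estrus and 0.79, 1.64 and 1.90 FPKM in diestrus. Its partner Jun had 31.2, 32.4 and 34.5 FPKM in estrus and 20.8, 29.0 and 24.2 FPKM in diestrus. The groups did not overlap for either, and the log2 fold changes were 1.03 ± 0.25 (SE) and 0.40 ± 0.11 (SE), with adjusted p of 0.792 for both in limma. Nr4a1, an orphan nuclear receptor, had 48.9, 26.2 and 16.8 FPKM in estrus and 14.3, 10.0 and 14.8 FPKM in diestrus. Its highest value was in estrus replicate 1, and its log2 fold change of 1.06 ± 0.34 (SE) was 1.41 without estrus replicate 3 and 0.66 without estrus replicate 1. Klf2, a transcription factor of endothelium that responds to flow, had 90.6, 88.2 and 92.6 FPKM in estrus and 70.9, 73.8 and 73.5 FPKM in diestrus. This was the most even of them, at a log2 fold change of 0.31 ± 0.06 (SE) and an adjusted p of 0.667 in limma. Maff, Ccn1, Fosl2 and Btg2 were the others that were higher, by 0.39, 0.38, 0.53 and 0.38 in log2. Ier3, a regulator of cell survival, was the lower one, with 26.4, 34.9 and 54.6 FPKM in estrus and 52.8, 50.7 and 62.1 FPKM in diestrus, and a log2 fold change of -0.56 ± 0.23 (SE). Egr1, which is often read beside Fos, overlapped between the phases at 6.56 to 16.5 FPKM and 6.58 to 13.5 FPKM.

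The other genes among the 12 largest differences upward, all without overlap and all with an unadjusted p under 0.05 by choice, were mostly at low levels. Scd4, a heart-expressed stearoyl-CoA desaturase, had 13.2, 6.78 and 18.1 FPKM in estrus and 4.84, 6.16 and 5.84 FPKM in diestrus, and a log2 fold change of 0.96 ± 0.29 (SE) that was 0.67 without estrus replicate 3. Lgals3, galectin-3, had 4.45, 3.26 and 7.63 FPKM in estrus and 2.18, 2.59 and 2.86 FPKM in diestrus. Angpt1, the ligand of the endothelial receptor TIE2, had 10.4, 9.93 and 16.9 FPKM in estrus and 7.73, 6.33 and 8.73 FPKM in diestrus. For these 3 genes and for Fxyd3, a regulator of the sodium pump, estrus replicate 3 was the highest library, and Fxyd3 went from 1.27 to 0.72 in log2 fold change without it. Tnfaip2, an endothelial gene induced by TNF, had log2 fold changes of 0.63 with and 0.69 without estrus replicate 3, and Auts2, a nuclear regulator of transcription, 0.62 and 0.80. The predicted genes Gm10705 and Gm40363 completed the set. Gm40363 was at 2.64, 1.04 and 2.79 FPKM in estrus and was listed at 0 in the 3 diestrus libraries, so no fold is given for it. Reads of predicted genes may be shared with similar copies, and these values are uncertain.

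**Figure D3:**
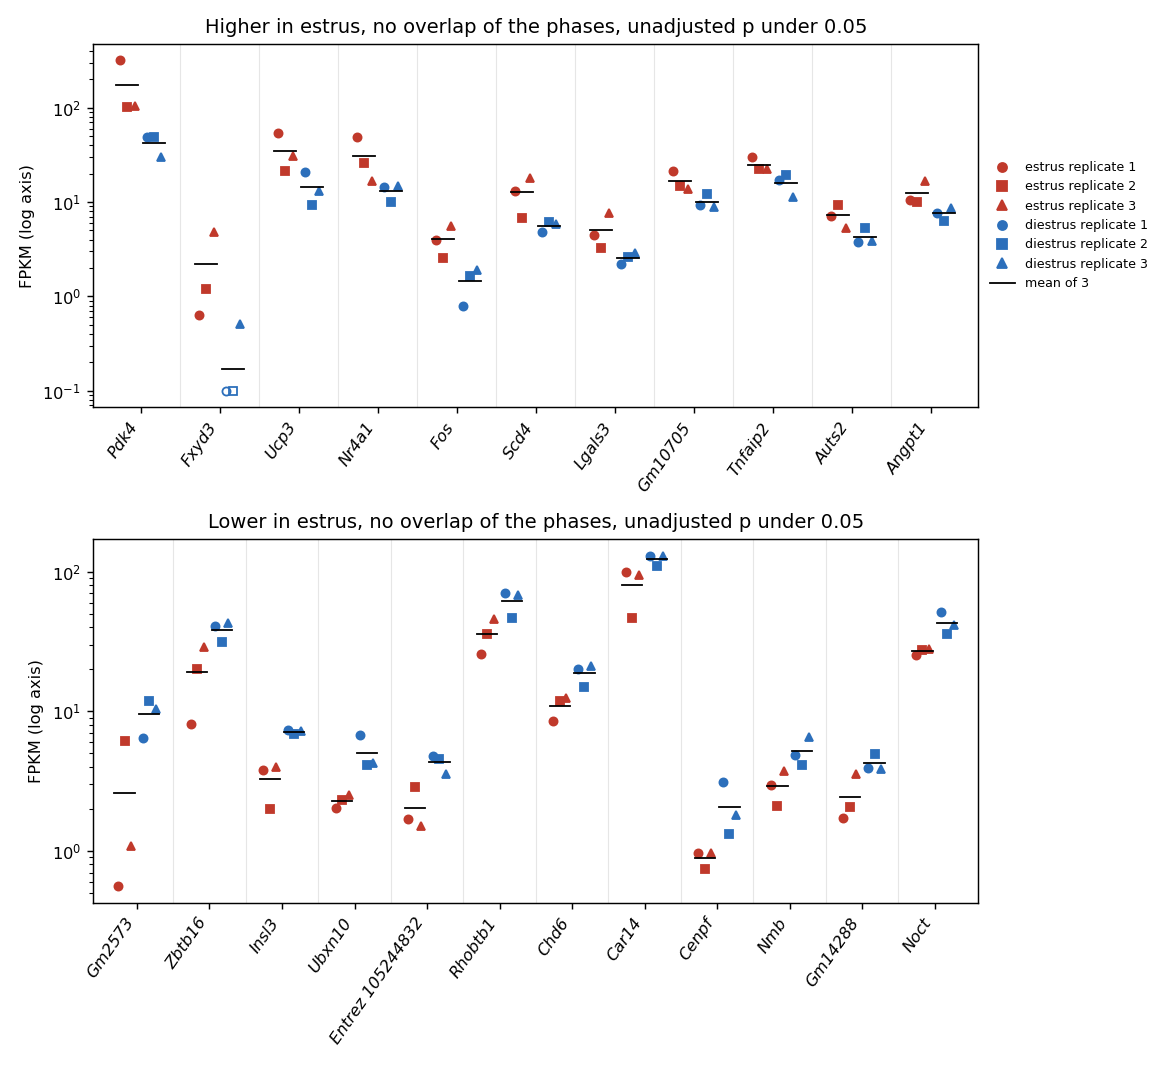
Level of the genes with the largest log2 fold changes among those without overlap between the phases, higher in estrus (top, 11 genes, without Gm40363, which is listed at 0 in diestrus) and lower in estrus (bottom, 12 genes), in FPKM on a log axis; open symbols at 0.1 stand for values listed at 0. Pdk4 is the most abundant of the genes higher in estrus and Car14 of those lower.

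Downward, the largest difference of a gene with a known product was that of Zbtb16. This zinc finger repressor, also called PLZF, is known to be induced by glucocorticoids and had 8.08, 20.2 and 28.9 FPKM in estrus and 41.0, 31.3 and 43.0 FPKM in diestrus. All estrus libraries were below all diestrus libraries, estrus replicate 1 most of all. The log2 fold change was -1.12 ± 0.38 (SE), with an adjusted p of 0.793 in limma, -1.49 without estrus replicate 3 and -0.63 without estrus replicate 1. Rhobtb1, an atypical small GTPase, had 25.7, 35.6 and 45.9 FPKM in estrus and 70.8, 46.6 and 68.4 FPKM in diestrus, a log2 fold change of -0.79 ± 0.22 (SE). Noct, nocturnin, a rhythmic phosphatase, had 25.3, 27.6 and 27.9 FPKM in estrus and 51.2, 35.9 and 41.7 FPKM in diestrus. Its estrus values were tight, and its log2 fold change of -0.64 ± 0.12 (SE) had an adjusted p of 0.667 in limma. Car14, a carbonic anhydrase of the muscle membrane and the most abundant of the 12, had 99.8, 46.9 and 95.3 FPKM in estrus and 130.2, 111 and 129.5 FPKM in diestrus, with the lowest value in estrus replicate 2. Insl3, a relaxin-like peptide, had 3.82, 2.01 and 3.98 FPKM in estrus and 7.38, 6.90 and 7.20 FPKM in diestrus, a log2 fold change of -0.97 ± 0.18 (SE). Nmb, neuromedin B, had 2.96, 2.11 and 3.75 FPKM in estrus and 4.87, 4.16 and 6.60 FPKM in diestrus. The rest were the chromatin remodeler Chd6 at -0.72 in log2 fold change, Ubxn10 at -0.85, the centromere gene Cenpf at -0.66 with all values at most 3.12 FPKM, the predicted genes Gm2573 and Gm14288 at -1.85 and -0.64, and a gene without a symbol at -0.83. All 24 genes kept their direction in each of the 6 fits without 1 library, which their lack of overlap fixes in advance.

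Genes of the circadian clock varied more between libraries than between phases. Of 14 tested clock genes of the Dbp phase, which peak in the evening in mouse tissues, 13 were lower in estrus, with a median log2 fold change of -0.50, but only Cry2 had an unadjusted p under 0.05, and 0 were without overlap. Dbp, a PAR bZIP transcription factor, had 12.5, 45.1 and 152 FPKM in estrus and 138, 73.7 and 153 FPKM in diestrus. Ciart, a clock repressor, had 1.88, 3.16 and 19.3 FPKM in estrus and 19.2, 7.08 and 18.2 FPKM in diestrus. Per2, a core repressor, had 1.46, 5.13 and 9.21 FPKM in estrus and 10.8, 5.60 and 13.2 FPKM in diestrus. Estrus replicate 1 was the lowest library for 13 of the 14 genes, and estrus replicate 3 lay with the diestrus libraries. Arntl, which encodes BMAL1, ran opposite, with 11.6, 5.87 and 1.76 FPKM in estrus and 0.95, 4.69 and 0.54 FPKM in diestrus, and estrus replicate 1 was the highest library for 5 of 6 genes of that phase. Npas2, a partner of BMAL1, had 4.01, 1.67 and 0.96 FPKM in estrus and 0.76, 1.48 and 0.46 FPKM in diestrus. Without estrus replicate 3 the median of the Dbp-phase list was -0.75, and 11 of its 14 members were lower at an unadjusted p under 0.05, against 4.07% of all tested genes, while without estrus replicate 1 the median was -0.29 and 0 were lower at that limit. Without diestrus replicate 2, 5 were lower. The labels give no time of harvest, and its part in these values was not tested.

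**Figure D4:**
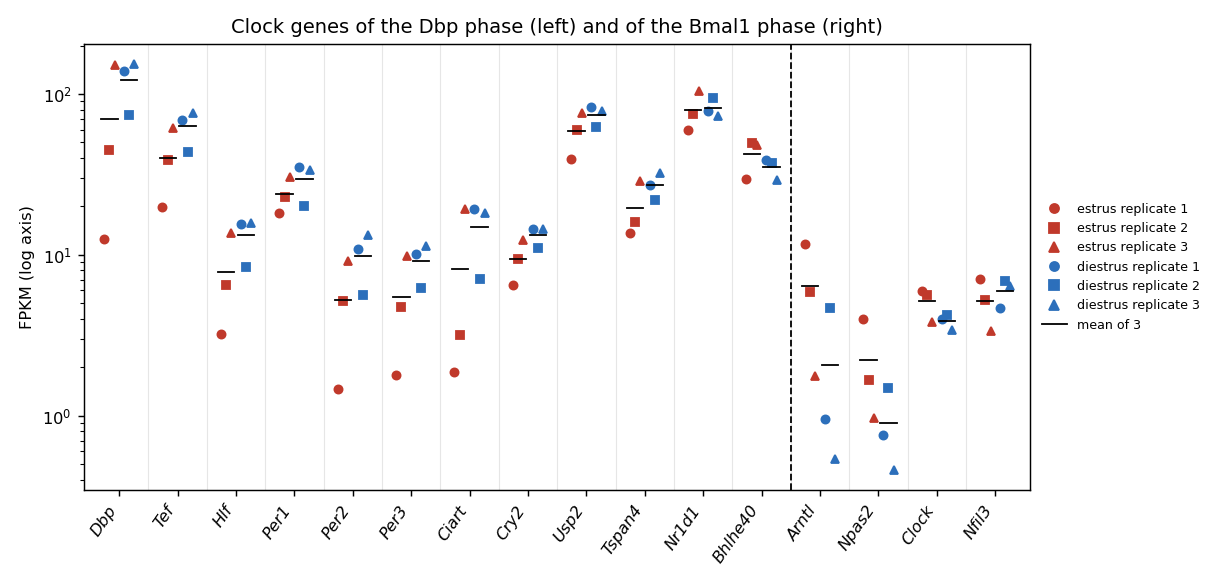
Level of 12 clock genes of the Dbp phase (left) and 4 of the Bmal1 phase (right) in each heart library, in FPKM on a log axis; colours mark the phase, symbols the replicate and bars the mean of 3. Estrus replicate 1 is lowest for every gene on the left but Bhlhe40 and highest for Arntl, Npas2, Clock and Nfil3.

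Some promoters of these clock genes hold the letters of known clock elements, and 3 are shown because 250 bases before to 50 after the start can carry the E-box and D-box that drive such genes. The sequences are from RefSeq on GRCm38.p6, which matched 12 of the 14 Dbp-phase genes, and capitals mark every CACGTG (E-box) or TTATGTAA (D-box) found on either strand. The Ciart promoter at chr3:95882179-95882478, minus strand, has 3 E-boxes, the Tef promoter at chr15:81811164-81811463, plus strand, has 1, and the Per3 promoter at chr4:151044616-151044915, minus strand, has 2 D-boxes.
Ciart: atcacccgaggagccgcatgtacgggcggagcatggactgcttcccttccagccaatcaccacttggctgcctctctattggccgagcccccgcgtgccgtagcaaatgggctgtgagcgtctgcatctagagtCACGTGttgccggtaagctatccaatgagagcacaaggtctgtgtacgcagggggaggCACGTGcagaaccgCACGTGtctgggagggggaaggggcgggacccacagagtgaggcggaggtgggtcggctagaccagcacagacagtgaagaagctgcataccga
Tef: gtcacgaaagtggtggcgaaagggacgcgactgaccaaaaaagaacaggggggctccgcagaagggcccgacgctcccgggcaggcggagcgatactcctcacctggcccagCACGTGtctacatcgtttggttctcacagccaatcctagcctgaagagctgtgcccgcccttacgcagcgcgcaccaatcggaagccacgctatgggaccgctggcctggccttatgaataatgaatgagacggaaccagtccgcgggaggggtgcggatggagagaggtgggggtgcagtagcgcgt
Per3: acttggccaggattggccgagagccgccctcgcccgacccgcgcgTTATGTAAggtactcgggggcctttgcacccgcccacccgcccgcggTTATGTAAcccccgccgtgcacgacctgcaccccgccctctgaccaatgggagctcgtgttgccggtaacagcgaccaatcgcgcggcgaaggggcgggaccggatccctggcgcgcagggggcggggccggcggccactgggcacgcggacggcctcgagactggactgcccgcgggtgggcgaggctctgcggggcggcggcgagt
Among the 12 genes, 5 had an E-box and 1 a D-box in a listed promoter, and the others, Dbp itself included, had neither. Of all 32851 promoters of that table, 7.15% had an E-box and 0.938% a D-box, and over its 27025 genes the shares were 8.09% and 1.11%. Of 3 other elements that were searched in the same table, a direct repeat of nuclear receptor sites (DR1) was found in 0.0396%, the cAMP element TGACGTCA in 1.79% and a CArG-like element in 0.466% of the promoters, and they are not marked. The 3 promoters were picked because they hold a match, and a match describes the letters only. The printed genes were among those with wide spreads, Tef with 19.7, 38.8 and 61.4 FPKM in estrus and 68.7, 43.7 and 76.3 FPKM in diestrus, and Per3 with 1.80, 4.73 and 9.89 FPKM in estrus and 10.1, 6.23 and 11.3 FPKM in diestrus.

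The library with the lowest Dbp was also the library with the highest Pdk4, Ucp3, Angptl4 and Nr4a1 and the lowest Zbtb16. Over the 15 tissues, heart included, the library numbered estrus replicate 1 had the highest Pdk4 of the 6 in 9 tissues, the lowest Dbp in 9 and both in 7. In skeletal muscle, the library numbered estrus replicate 1 had 530.2 FPKM of Pdk4 against 70.3 to 158 FPKM in the other 5, and 13.2 FPKM of Dbp against 67.1 to 122 FPKM. In liver, estrus replicate 1 had 4.04 FPKM of Pdk4 against 0.41 to 1.89 FPKM, and 0.98 FPKM of Dbp against 44.0 to 127 FPKM. In kidney, it had 19.9 FPKM of Pdk4 against 4.74 to 6.89 FPKM, and 15.6 FPKM of Dbp against 24.8 to 158 FPKM. The order of Pdk4 was not shared by aorta, where estrus replicate 1 had the lowest value, 24.7 FPKM against 127 to 384 FPKM. In vein and hypothalamus it was highest by a narrow margin, 113 against 112 FPKM and 3.37 against 3.22 FPKM. The order of Dbp was reversed in vein and ovary, where estrus replicate 1 had the highest value, 252 and 154 FPKM. In aorta, vein and duodenum the lowest Dbp was in diestrus replicate 1, at 2.51, 4.60 and 0.52 FPKM, a number with 138 FPKM in heart. The study's methods have all tissues taken from mice killed in triplicate, but the labels do not say whether equal numbers mark the same mouse, and the part of such a shared source was not tested.

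Genes of wall stress and the fetal program had mostly higher values in estrus. Of 17 tested members, 14 were higher, against 56.8% of all tested genes, with a median log2 fold change of 0.22. At an unadjusted p under 0.05, 5 were higher and 0 lower, against 4.01% and 2.09% of all tested genes, and 2 did not overlap, both higher. Without estrus replicate 3, 12 were higher and 5 lower, with a median of 0.29 and with 4 and 0 at that limit. With equal medians 5 were higher and 1 lower at that limit. The number higher at that limit went from 3, without either estrus replicate 1 or diestrus replicate 1, to 8 without estrus replicate 2. Nppb, brain natriuretic peptide, had 529, 435 and 626 FPKM in estrus and 163, 497 and 276 FPKM in diestrus, and the groups overlapped through diestrus replicate 2. Its log2 fold change was 0.89 ± 0.35 (SE), with an adjusted p of 0.793 in limma, and 0.76 without estrus replicate 3. Nppa, atrial natriuretic peptide, had 358, 170.4 and 3389 FPKM in estrus and 159.9, 222 and 135 FPKM in diestrus, and its log2 fold change of 1.81 ± 0.94 (SE) was 0.55 without the atrial-rich library. Acta1, the skeletal actin of the fetal heart, had 272, 129 and 649.8 FPKM in estrus and 91.2, 134 and 117 FPKM in diestrus. The log2 fold change of Acta1 was 1.33 ± 0.49 (SE) and 0.73 without estrus replicate 3. The 17 genes of skeletal muscle fibres summed to 327, 178 and 767 FPKM in estrus and 129.9, 182 and 171 FPKM in diestrus. Acta1 is among them and made up most of each sum, so these sums largely restate its values. The part of such fibres was not tested. Ankrd1, a stretch-responsive sarcomere protein, had 662, 480.2 and 935 FPKM in estrus and 375, 387 and 486 FPKM in diestrus, with overlap at a single pair of libraries. Uck2, a uridine kinase, had 31.2, 29.6 and 28.2 FPKM in estrus and 24.1, 25.5 and 24.4 FPKM in diestrus, without overlap and without a peak in estrus replicate 3. Lgals3 is given above. The groups overlapped for both cardiac myosins, Myh6 with 4049, 5652 and 4844 FPKM in estrus and 5199, 5012 and 4509 FPKM in diestrus, and Myh7, the slow myosin, with 37.5, 25.7 and 35.5 FPKM and 29.9, 29.1 and 35.5 FPKM.

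Transcription factors of the heart differed little in size. Of 15 tested members of the list, 14 were higher in estrus, with a median log2 fold change of 0.10, but 12 were higher and 3 lower with equal medians. At an unadjusted p under 0.05, 4 were higher, a number that was 1 with equal medians and without estrus replicate 2, diestrus replicate 1 or diestrus replicate 3, and 2 without estrus replicate 1. Prox1, a homeobox factor of heart muscle and lymphatics, had 21.8, 18.9 and 12.4 FPKM in estrus and 12.1, 11.5 and 9.77 FPKM in diestrus, without overlap. The log2 fold change of Prox1 was 0.60 ± 0.18 (SE) and 0.82 without estrus replicate 3. Gata4, an activator of cardiac genes that the study lists for the heart, had 55.7, 53.8 and 52.2 FPKM in estrus and 40.4, 52.5 and 41.7 FPKM in diestrus, and a log2 fold change of 0.27 ± 0.10 (SE). Tbx20 and Tead1 had log2 fold changes of 0.21 and 0.20, and Nkx2-5 of 0.03. Foxa2, which the study also lists, was at most 0.12 FPKM in every heart library and was not tested. The study lists Gata4 and Foxa2 for an activity predicted from the trends of differentially expressed genes. That is a different measure from the RNA level given here.

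The contractile apparatus was even between the phases. Of 29 sarcomere genes, 15 were higher and 14 lower, with a median log2 fold change of 0.01 and 0 at an unadjusted p under 0.05. The 24 genes of calcium handling had a median of 0.03, with Fkbp1b, a partner of the ryanodine receptor, as the only member at that limit, at 0.94, 1.31 and 1.75 FPKM in estrus and 0.55, 0.81 and 0.82 FPKM in diestrus. Among 26 tested genes of the action potential, 3 were at that limit. Scn4b, a beta subunit of the sodium channel, had 15.8, 14.2 and 16.3 FPKM in estrus and 9.27, 11.1 and 12.3 FPKM in diestrus. Kcnj2, the inward rectifier that sets the resting potential, had 9.21 ± 0.975 FPKM in estrus and 11.9 ± 1.05 FPKM in diestrus (mean ± SD). Kcne1, the subunit of the slow delayed rectifier, had 1.73, 1.68 and 1.22 FPKM in estrus and 4.22, 2.17 and 2.28 FPKM in diestrus. When estrus replicate 2 was left out, 1 was higher and 4 were lower, and with estrus replicate 1 left out 3 were higher and 2 lower. None of the 3 overlapped, and their log2 fold changes were 0.47 ± 0.11 (SE), -0.34 ± 0.10 (SE) and -0.58 ± 0.20 (SE), with adjusted p of 0.789, 0.792 and 0.793 in limma. Lbh, a transcriptional cofactor of the ventricle, had 369, 304 and 319 FPKM in estrus and 239, 256 and 246 FPKM in diestrus, a log2 fold change of 0.41 ± 0.08 (SE) with an adjusted p of 0.667 in limma.

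The receptors of the cycling hormones were low. Esr1, estrogen receptor alpha, was at 0.12 to 0.32 FPKM in estrus and 0.17 to 0.25 FPKM in diestrus. Esr2 was at most 0.13 FPKM and Pgr, the progesterone receptor, at most 0.02 FPKM in any heart library. Gper1 was at 0.53 to 1.17 FPKM in estrus and 0.81 to 0.96 FPKM in diestrus. All 4 were under the filter and were not tested. Of the 11 hormone receptors that were tested, 0 had an unadjusted p under 0.05 in limma, and the membrane progesterone binding protein Pgrmc1 had 11.1 to 13.5 FPKM in estrus and 10.3 to 11.5 FPKM in diestrus. Of 27 tested estrogen-responsive genes, 14 were higher and 13 lower, with a median of 0.01, and without estrus replicate 3 these were 9 and 18, with a median of -0.05. Beside Fos, Cish, an inhibitor of cytokine signalling, was at the unadjusted limit, with 50.6, 54.0 and 47.6 FPKM in estrus and 61.6, 59.5 and 58.1 FPKM in diestrus, without overlap. Among 21 tested glucocorticoid-responsive genes, Pdk4 was higher and Zbtb16 and Fam107a lower at that limit, and Fam107a, an actin-binding stress gene, had 2.60, 2.45 and 4.77 FPKM in estrus and 8.93, 3.88 and 7.97 FPKM in diestrus. The counts of that list rested on single libraries. They were 4 higher and 5 lower when estrus replicate 3 was left out, 1 and 9 for diestrus replicate 2, 1 and 0 for diestrus replicate 1, 2 and 0 for diestrus replicate 3, 2 and 1 for estrus replicate 2 and 1 of each for estrus replicate 1.

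Genes of vessels, signalling and resident cells showed single differences at the unadjusted limit, and some of these lists leaned upward. Of 36 tested genes of natriuretic, angiotensin, adrenergic and endothelin signalling, 19 were higher and 17 lower, with Adra1b, an alpha-adrenergic receptor, Gucy1a1, a subunit of the nitric oxide receptor, and Nppb higher and 0 lower at an unadjusted p under 0.05. When estrus replicate 3 was left out, 1 was higher and 5 were lower at that limit, and with estrus replicate 1 left out there were 0 of each. Leaving out estrus replicate 2 gave 5 and 1, diestrus replicate 2 gave 4 and 2, and diestrus replicate 3 gave 1 and 0. Adra1b had 19.4, 16.8 and 14.3 FPKM in estrus and 14.5, 14.0 and 9.86 FPKM in diestrus. Of 27 tested growth factors and cytokines, Angpt1, Vegfc and Ccl2 were higher at that limit and did not overlap. The list had 21 members higher and 6 lower, but 14 and 13 without estrus replicate 3, with 3 in each direction at that limit. Ccl2, a chemokine for monocytes, had 2.97, 2.90 and 2.64 FPKM in estrus and 1.68, 1.55 and 2.37 FPKM in diestrus. Of 19 macrophage genes, 16 were higher and 3 lower, against 56.8% of all tested genes higher, with a median log2 fold change of 0.13. Without estrus replicate 3 these were 10 and 9, with a median of 0.03. Ctss, a lysosomal protease of macrophages, had 15.4, 17.1 and 13.6 FPKM in estrus and 10.1, 11.0 and 12.1 FPKM in diestrus. All 6 tested genes of MHC class II were higher, with a median of 0.11. The median was 0.21 without estrus replicate 3, and 0.04 without estrus replicate 1, with 5 higher and 1 lower. Endothelial genes had a median of -0.01 over 19, which was -0.10 without estrus replicate 3. Fibroblast and matrix genes had a median of 0.06 over 30, with 19 higher and 11 lower, and estrus replicate 3 was the highest library for 20 of the 31 listed. Without it their median was -0.04, with 12 higher and 18 lower. The summed erythroid genes, hemoglobins above all, were 2324, 1352 and 1060.2 FPKM in estrus and 1064, 430.5 and 2517 FPKM in diestrus, with wide overlap. Genes of pancreatic acini summed to at most 0.44 FPKM, those of lung and airway to at most 3.55 FPKM and those of thymus to at most 3.89 FPKM in any library.

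The phase difference of the heart was set against that of skeletal muscle, the other striated muscle of the series, by the contrast of both differences in limma. The study took its tissues from the same 3 mice of a phase, so heart and muscle libraries share animals, while the contrast treated the 12 libraries as independent. It was called for 2 of 11452 genes (0.0175%), Mad2l1bp and Mss51, while 13.8% had an unadjusted p under 0.05. Mss51 was at most 0.37 FPKM in heart and was tested through its level in muscle alone, so its call restates the log2 fold change of 1.27 in muscle and shows nothing of the heart. Mad2l1bp had log2 fold changes of 0.14 in heart and -0.86 in muscle. Another fit, chosen after seeing the data, took the phase and replicate number as the mouse, which the labels do not state. In it 0 genes were called in limma, 1684 had an unadjusted p under 0.05, and the lowest adjusted p was 0.0693, that of Mad2l1bp. Deviations of heart and muscle libraries of the same phase and number correlated at -0.04 to 0.06 in estrus and 0.20 to 0.24 in diestrus.

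For the genes that led in heart, the contrast did not pass in either fit. For Pdk4 the log2 fold change was 0.35 in muscle, and heart minus muscle was 1.48. Its adjusted p was 0.506 in limma and 0.252 with phase and number in the fit. For Ucp3 heart minus muscle was 1.07, with an adjusted p of 0.348 in limma and 0.252 with phase and number. For Scd4 it was 1.05, with 0.254 and 0.261. Zbtb16 had log2 fold changes of -1.12 in heart and -1.07 in muscle, Noct of -0.64 and -0.55 and Slc2a4 of -0.21 and -0.20. Prss23, a serine protease named here after its values were seen, had 9.80, 10.3 and 10.6 FPKM in estrus and 6.76, 7.79 and 6.87 FPKM in diestrus of heart. Its contrast was 0.78, below the fold limit, with an adjusted p of 0.0455 in limma and 0.252 with phase and number.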

How the data were processed

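RNA was sequenced on the BGISEQ-500 from 15 tissues of mice in estrus or diestrus. The authors filtered reads with SOAPnuke, aligned them to GRCm38.p5 with Bowtie2 2.2.5 and quantified genes with RSEM 1.2.8, and deposited a table of FPKM values without counts. The unit is not named in the sources used here and was inferred, since the values times transcript length sum to nearly the same total in all 90 libraries (CV 2.2% with protein-coding transcripts, chosen after other transcript sets, against 12.5% for plain sums). RSEM shares reads between copies, so values of near-identical genes are uncertain.

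Groups were taken from the labels. Symbols came from RefSeq, which named 20265 of 20414 genes. Values were tested as log2(FPKM + 1) with limma 3.58.1 in R 4.3.3, with a variance trend, no covariate and Benjamini-Hochberg adjustment, on the 6 heart libraries, keeping genes that averaged 1 FPKM or more. The study used DEGSeq, which needs counts that were not used here. The procedure was tested on simulated data. Named genes are the 12 largest differences in each direction without overlap of the phases and with an unadjusted p under 0.05, list members at that limit, abundant members, hormone receptors, natriuretic and fetal genes and transcription factors that the study lists for the heart, and a few of these are not reported here. The members and lists were chosen with earlier results of these data known. Angptl4, Pdk1 to Pdk3, Egr1, Nkx2-5, Pgrmc1, the clock genes other than Cry2, the tissues set beside heart, and the motifs and promoters shown were picked after their values or matches were seen. The block of phase and number in the contrast with muscle was added after seeing the data. P-values measure the spread between 3 mice per phase. Depth was approximated from short genes of 300 to 1500 bases at an assumed read length of 50, and 62.7% to 72.0% of their values came out whole within 0.2 reads at the lower depth, so counts were not recovered. The search up to 30 M reads was added after seeing the data. Alternatives were the pseudocount (0.1), no filter or a filter at an average of 5 FPKM, equal medians, no trend, the spread of all 90 libraries in 1 fit, a block for the replicate number and each library left out. Tables and plots were made with pandas 2.3.3, numpy 2.4.6 and matplotlib 3.10.9 (Python 3.11.15).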

Additional observations from a re-analysis of the deposited data

Results flagged for a closer look

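The phase difference of heart and that of skeletal muscle differed by the tested contrast for 2 genes. Mad2l1bp, which silences the spindle checkpoint, had a log2 fold change of 0.14 in heart and -0.86 in muscle, and heart minus muscle was 1.00 with an adjusted p of 0.0177 in limma. Mss51, a mitochondrial gene of skeletal muscle, had a contrast of -1.21 with an adjusted p of 0.0177 in limma, but was at most 0.37 FPKM in heart, so that the value restates its log2 fold change of 1.27 in muscle. Both lost the call when estrus replicate 1, estrus replicate 2, diestrus replicate 1 or diestrus replicate 3 of heart was left out. With the phase and number taken as the mouse that heart and muscle share, a fit chosen after seeing the data, the adjusted p in limma were 0.0693 for Mad2l1bp and 0.0761 for Mss51, and neither was called.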

How the results depend on the processing

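With 3 libraries a phase, no gene was called in the main comparison, so stability of calls could not be judged. The number called stayed 0 except for 1 with the replicate block (Ucp3, adjusted p = 0.0224 in limma) and 0 to 1 in the fits without 1 library, the 1 being Gm40363 without estrus replicate 2 (adjusted p = 0.019). The numbers did not pair the libraries, since deviations of libraries with the same number correlated at -0.03, 0.03 and 0.02, and the replicate block gave 741 genes with an unadjusted p under 0.05 against 707 without it. That number was 83 in 1 fit of all 90 libraries, where Scd4 had an adjusted p of 0.00384 in limma but a fold change under the limit, and 466 to 960 without 1 library, the lowest without diestrus replicate 3. The contrast with skeletal muscle called 1 gene with a pseudocount of 0.1, 2 with the replicate block, 0 with a replicate block within each phase (taken as the mouse), 2 with equal medians (Mss51 and Slc43a1) and 0 to 2 without 1 library. The atrial ratio was 14.1 after division by cardiomyocyte genes. Of the named genes, 602 values kept direction and side of the call limits, 2 passed both the fold limit and the adjusted limit, and 8 reversed. The last were among the fits without 1 library. Myh6 ranged from -0.15 to 0.10 (reversed without diestrus replicate 1, 0.02, and estrus replicate 1) and Myh7 from -0.05 to 0.21 (reversed without estrus replicate 1, estrus replicate 3, -0.01, and diestrus replicate 2, -0.00). Myl7 ranged from -1.18 to 3.68, Myl4 from -0.17 to 4.05 and Sln from -0.62 to 3.36, each lowest, and reversed, without estrus replicate 3. Of the list medians, 363 values moved by less than the spread between replicates and 24 by more. The causes were not tested. Depth, uncertain by about a factor of 2, limits the low genes.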
